A study of Mus musculus with 1457 samples.

Results

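A set of 34 genes of glucose use and the response to low oxygen was followed through the blood-forming region of the mouse embryo. They were taken by name from 36131 genes measured in 1457 single cells, and all 34 were found in both deposited count tables. For the account here they were divided into 23 genes of glycolysis and 11 genes of the hypoxia response. The glycolysis genes are 2 glucose transporters, 14 enzymes that turn glucose into pyruvate, the 2 lactate dehydrogenase genes, 2 carriers of lactate and pyruvate and 3 regulators of flux. The hypoxia genes are 3 subunits of hypoxia-inducible factor (HIF), 2 of the hydroxylases that mark it for destruction, and 6 further targets of it.

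Glycolysis breaks glucose down to pyruvate in the cytosol, and lactate dehydrogenase turns pyruvate into lactate so that the pathway can run without oxygen. HIF is a pair of proteins, an oxygen-regulated alpha subunit (HIF1A, or HIF2A, the product of Epas1) and a constant partner (ARNT). When oxygen is plentiful the EGLN hydroxylases mark the alpha subunit for degradation, and when it is scarce HIF turns on most of the glycolytic enzymes along with genes such as Adm and Bnip3. Many glycolysis genes are therefore also HIF targets, and both subsets are kept apart below. Endothelial cells are known for a high rate of glycolysis, and HIF1A has been tied to the formation of blood stem cells in this region.

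The cells came from the aorta-gonad-mesonephros (AGM), where blood stem cells arise from the wall of the dorsal aorta, of ICR mouse embryos at embryonic days E10.5 and E11.5, and were read singly with the Smart-seq2 method. Endothelium (Endo), hemogenic endothelium (HE, the endothelial cells about to make blood), cells in endothelial-to-hematopoietic transition (EHT), intra-aortic hematopoietic clusters (IAHC) and mesenchyme (Mes) are flow cytometry gates. All gates left out cells with CD45 or TER119 on the surface. Endo and HE had CDH5 without KIT or CD41, and HE also had a Gfi1 or Runx1b reporter signal. EHT cells had CDH5, KIT, CD41 and the Gfi1 reporter, IAHC cells the Gfi1b reporter as well, and Mes cells the Runx1b reporter without CDH5. The labels used here describe no gate for Endo of the Runx1b line. Gates and genotypes are those of the labels, and a reporter protein marks cells that had switched its gene on.

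Embryos of genotype Gfi1:Tomato/WT Gfi1b:GFP/WT yielded at E10.5 Endo (74 cells), HE (95), EHT (41) and IAHC (42), and at E11.5 Endo (16), HE (40) and IAHC (22). A further 41 Endo, 43 HE and 42 EHT cells of this genotype bore E11.5 in the title and E10.5 in the stage field, and are described by level only. Embryos of genotype Gfi1:Tomato/Tomato Gfi1b:GFP/GFP, in which both genes are replaced by reporters, gave 42 HE cells at E10.5. From Runx1b:RFP/WT embryos at E10.5 came 53 Endo cells, an HE sort of 17.98% and a Mes sort of 7.34% of all cells, and from Runx1b:RFP/RFP embryos 91 Mes cells. A second HE sort of this line, 19.01% of all cells, bears KO in its titles and Runx1b:RFP/WT in its genotype field. A last sort from Gfi1:Tomato/WT embryos at E10.5 used angiotensin-converting enzyme (ACE) on the surface and gave 14 ACE-GFI1- cells (Endo), 39 ACE+GFI1+ cells (HE) and ACE+GFI1- cells, the last 7.96% of all cells. Every group thus carried at least 1 reporter allele, and no label named an embryo, so each of the 19 groups counts as 1 sample.

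The median cell had 598000 reads (extremes 12 and 5652968) and the E11.5 groups were sequenced most deeply. A level is the reads of a gene per 1000000 reads (CPM), with all cells of a group added up. Of the 646 member levels, 601 rested on at least 100 reads, for which exact 95% Poisson limits lay no more than 18.1% under and 20.9% over the value. Such intervals cover counting error only, because the reads carry no molecular identifiers. Some groups stood apart from their gate. Cells with at least 1% of their reads in globin genes, called erythroid-like here, made up 14 of the 22 IAHC cells at E11.5, 16 of the 95 HE cells and 4 of the 42 HE cells labelled Gfi1/Gfi1b knockout at E10.5, 11.8% of the Runx1b HE cells (31) and 9.35% of the Mes cells (10). Of 20 pan-endothelial genes, 10 or more were read in only 50% of the cells of the Runx1b HE gate, and 10 mesenchyme genes summed to 5015 CPM there, near the 6048 CPM of the Mes gate. For pairs that hold these groups, counts of members are given with and without erythroid-like cells.

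The promoters of the 5 glycolysis genes that fell in the test below are shown first, because the family is best known for its HIF sites. RefSeq (GRCm38.p6) held 44 promoter windows for 31 of the 34 genes, each from 250 bases before to 50 bases after a transcription start. Windows of Slc2a3, Epas1 and Ndrg1 were not analysed here. Capitals mark the core of the HIF site, ACGTG or GCGTG, read on either strand (CACGT or CACGC on the strand shown). Where CACGTG occurs both strands match, and such a site counts as 2. The windows run along the gene's own strand. Of 2 windows for Ldha and for Pkm the one with more matches is shown, and of 3 for Eno1 the second.
Ldha, chr7:46845554-46845853, plus strand: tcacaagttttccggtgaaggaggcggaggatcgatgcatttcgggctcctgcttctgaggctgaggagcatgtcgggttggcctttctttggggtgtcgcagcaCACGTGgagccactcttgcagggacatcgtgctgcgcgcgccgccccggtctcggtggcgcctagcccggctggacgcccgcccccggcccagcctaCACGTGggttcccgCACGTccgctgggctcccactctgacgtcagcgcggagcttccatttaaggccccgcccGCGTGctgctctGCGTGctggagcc
Pgk1, chrX:106186850-106187149, plus strand: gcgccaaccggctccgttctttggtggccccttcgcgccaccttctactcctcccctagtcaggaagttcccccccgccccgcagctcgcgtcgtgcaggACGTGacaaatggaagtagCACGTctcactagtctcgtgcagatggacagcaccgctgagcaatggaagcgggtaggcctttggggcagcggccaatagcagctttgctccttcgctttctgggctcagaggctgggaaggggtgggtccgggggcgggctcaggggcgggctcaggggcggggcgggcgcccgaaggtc
Eno1, chr4:150236947-150237246, plus strand: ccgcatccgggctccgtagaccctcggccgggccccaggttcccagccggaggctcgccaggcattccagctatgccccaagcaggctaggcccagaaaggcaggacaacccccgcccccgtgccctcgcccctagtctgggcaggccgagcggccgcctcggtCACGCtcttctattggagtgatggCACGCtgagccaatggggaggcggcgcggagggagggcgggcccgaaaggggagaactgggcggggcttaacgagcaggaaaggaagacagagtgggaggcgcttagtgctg
Pkm, chr9:59656977-59657276, plus strand: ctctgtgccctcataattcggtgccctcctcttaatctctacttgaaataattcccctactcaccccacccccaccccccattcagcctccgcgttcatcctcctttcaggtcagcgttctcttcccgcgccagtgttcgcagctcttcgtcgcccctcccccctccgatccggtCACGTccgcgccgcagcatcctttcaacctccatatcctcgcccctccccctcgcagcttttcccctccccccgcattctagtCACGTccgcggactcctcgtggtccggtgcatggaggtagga
Gpi1, chr7:34230287-34230586, minus strand: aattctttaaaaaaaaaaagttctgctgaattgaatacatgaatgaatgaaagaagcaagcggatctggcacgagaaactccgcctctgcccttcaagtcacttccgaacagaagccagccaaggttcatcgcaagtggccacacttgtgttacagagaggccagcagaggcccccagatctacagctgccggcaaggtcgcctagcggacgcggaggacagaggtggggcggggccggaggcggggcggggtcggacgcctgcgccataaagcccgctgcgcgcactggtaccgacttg
The core occurred at 7 positions in the Ldha window and at 2 positions in each of the windows of Pgk1, Eno1 and Pkm. None was found in the Gpi1 window, nor in the other window of Pkm. Of all member windows, 37 of 44 (84.1%) held the core, namely 28 of 35 (80%) for glycolysis genes and 9 of 9 (100%) for the 9 hypoxia genes with a window. Among all 32851 promoters of this length the share was 43.8%. A match of 5 letters describes the sequence and does not show binding, and no base composition was matched between these windows.

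Across the 19 groups the level of glycolysis varied widely. The 16 enzyme genes (those up to pyruvate plus Ldha and Ldhb) together took 12594 CPM in ACE-GFI1- endothelium, the highest value, and 2964 CPM in the HE sort of conflicting stage, the lowest. In the Gfi1/Gfi1b line at E10.5 Endo took 8538 CPM, HE 3816, EHT 7376 and IAHC 9176. HE was the lowest of these 4 groups, and EHT and IAHC lay near or above Endo. HE lay below the Endo sort of its own set in all 5 sets, at 3217 against 5623 CPM at E11.5, 3026 against 6568 CPM in the Runx1b line, 5431 against 12594 CPM in the ACE sorts and 2964 against 3839.8 CPM in the cells of conflicting stage. The HE cells labelled Gfi1/Gfi1b knockout departed from all of these with 10473 CPM. The 11 hypoxia genes summed to 240.2 to 1309 CPM.

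**Figure D1:**
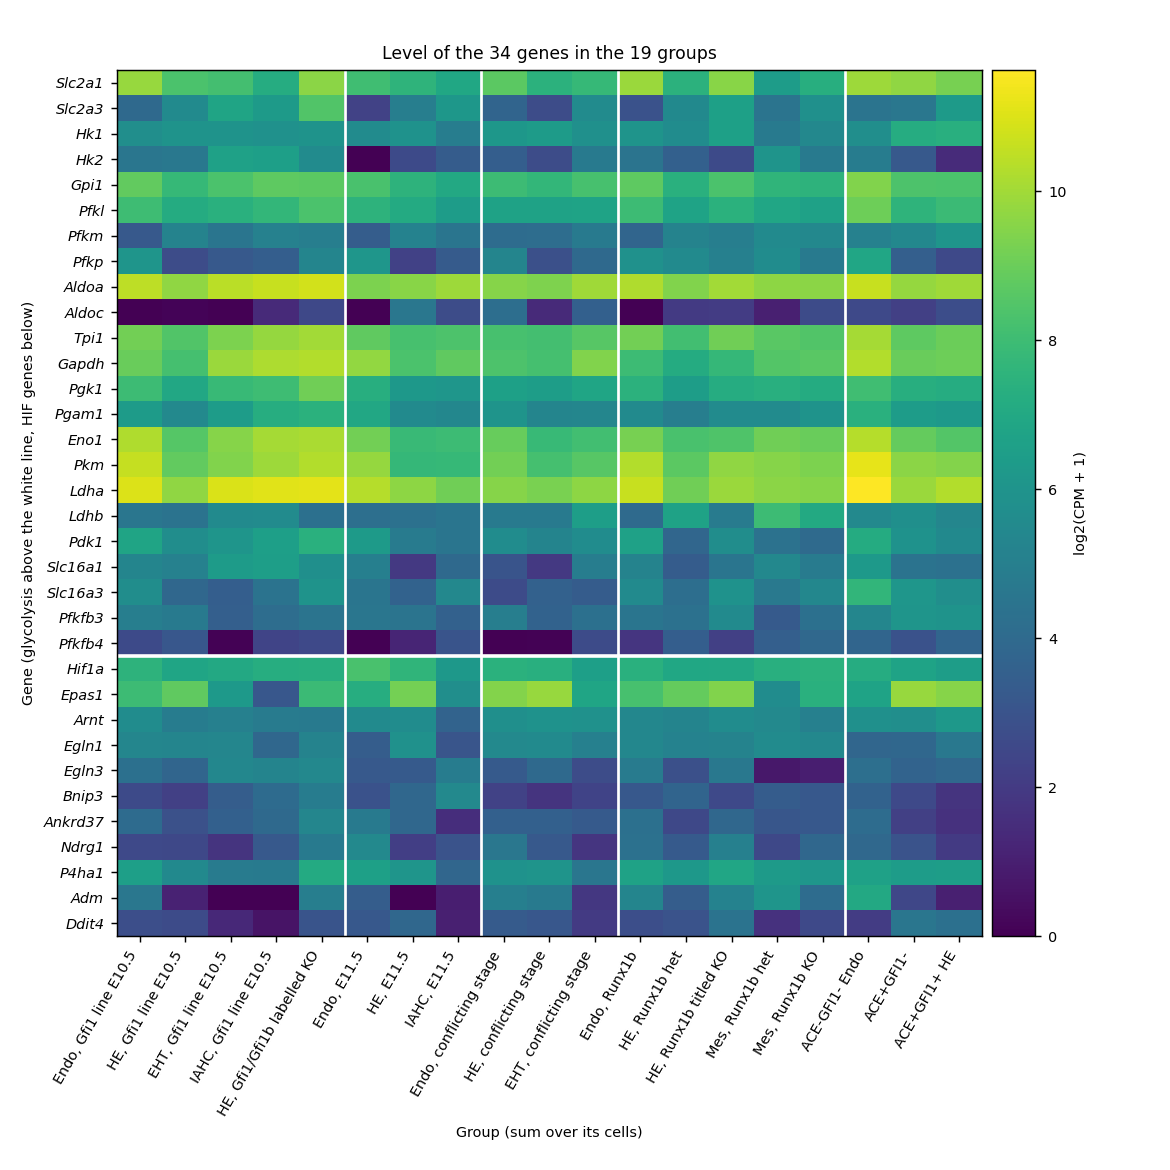
Level of the 34 genes (rows) in the 19 groups (columns) as log2(CPM + 1) of the reads summed over a group's cells; white vertical lines part the Gfi1/Gfi1b line at E10.5, E11.5, conflicting stage, Runx1b line and ACE sorts. Ldha, Aldoa, Pkm and Eno1 are among the brightest rows, and Adm, Epas1 and Slc2a3 are among the rows that change between columns of one line.

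Single cells spread widely within each group. In cells with at least 100000 reads, the central 50% of the cells lay between 4739 and 10771 CPM of the 16 enzymes in E10.5 Endo and between 2574 and 5394 CPM in HE, with medians of 7607 and 3968 CPM. These ranges overlapped. By medians of cells HE labelled Gfi1/Gfi1b knockout was the highest group, at 10802 CPM, ahead of ACE-GFI1- Endo at 10382, and E11.5 HE the lowest, at 2606, so both ends differed from those of the sums. The central 50% of the HE cells labelled knockout, 9481 to 11924 CPM, lay wholly above that of HE.

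**Figure D2:**
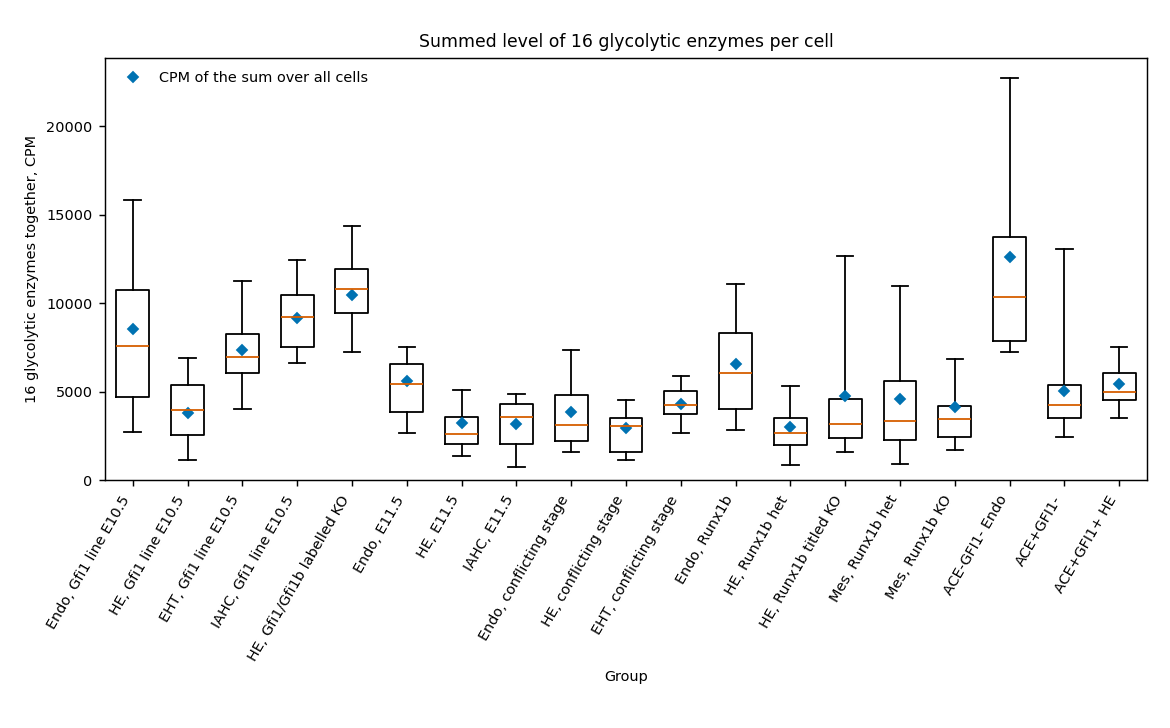
Summed CPM of the 16 glycolytic enzymes per cell in each group, for cells with at least 100000 reads; boxes span the quartiles, orange lines are medians, whiskers reach the 5th and 95th percentiles and blue diamonds are the level of the summed reads of all cells. HE medians lie below the Endo medians of the same sort set, while the HE sort labelled Gfi1/Gfi1b knockout and ACE-GFI1- Endo are the highest.

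HE against endothelium was the comparison with replicates, made over 4 sort sets (the Gfi1/Gfi1b line at both stages, the Runx1b line and the ACE sorts). It asks how the hemogenic cells differ from the endothelium around them. In HE 5 glycolytic enzymes fell, Pkm, Eno1, Ldha, Gpi1 and Pgk1, and 1 gene rose, the glucose transporter Slc2a3. The test was edgeR's quasi-likelihood F-test on summed reads with the set as a block and TMM scaling, and the CPM values of the 8 sorts carry that scaling. P-values were adjusted by Benjamini-Hochberg over all 14553 genes tested. It called 1.4% of these genes, 0.515% lower and 0.886% higher, against 6 of the 34 members, 5 lower and 1 higher. At an unadjusted p under 0.05 stood 21 members, and 19.4% of all genes. The median log2 ratio was −0.93 over the 23 glycolysis genes, −0.51 over the 11 hypoxia genes and 0.09 over all genes tested. The Endo and HE values did not overlap for 10 members, 7 of glycolysis and 3 of hypoxia, and for 12.7% of all genes.

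Among the glucose transporters a minor one rose. Slc2a3, which encodes the high-affinity transporter GLUT3 (chr6:122727809-122801640, minus strand), had 14.02, 3.81, 6.49 and 20.6 CPM in the Endo sorts of the E10.5, E11.5, Runx1b and ACE sets, the order used from here on. In HE it had 51.7, 28.6, 47.9 and 79.04 CPM. Every HE sort lay above every Endo sort, and the log2 ratio was 2.401 ± 0.32 (standard error, adjusted p = 0.0382). Slc2a1, which encodes GLUT1, the main endothelial glucose transporter (chr4:119108711-119137983), had 879.5, 261.1, 899.9 and 945 CPM in Endo and 361, 178.7, 193.2 and 596 CPM in HE. It was lower in HE in all 4 sets, but the E11.5 Endo sort was as low as HE sorts and the log2 ratio of −1.17 ± 0.31 did not pass (adjusted p = 0.130). Per kilobase of exon, Slc2a3 made up 0.765% of the 2 transporters in E10.5 Endo and 6.48% in HE, so Slc2a1 was the main one in both.

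The last steps of glycolysis held most of the calls. Pkm encodes pyruvate kinase, which makes pyruvate (chr9:59656368-59679375), and stood at 1487, 865, 1216 and 2322 CPM in Endo against 506, 205.3, 453 and 701 CPM in HE. It fell by 1.70 ± 0.16 on the log2 scale (adjusted p = 0.0175), with no overlap between the sorts. Eno1, the enolase gene one step earlier (chr4:150236721-150248879), stood at 1173, 549, 582 and 1258 CPM in Endo and at 418, 220.9, 336 and 353 CPM in HE. It fell by 1.36 ± 0.20 (adjusted p = 0.0472), again with no overlap. Pgk1, the X-linked gene of phosphoglycerate kinase (chrX:106187100-106203699), stood at 242.4, 152.9, 172.2 and 265.5 CPM in Endo and 139.5, 68.8, 93.5 and 141.8 CPM in HE. It fell by 0.93 ± 0.13 (adjusted p = 0.0460) with no overlap, though the lowest Endo and the highest HE sort were close. Gapdh and Pgam1, between and beside these in the pathway, were lower in HE in all 4 sets without passing, at log2 ratios of −0.97 ± 0.19 (adjusted p = 0.0788) and −0.94 ± 0.21 (adjusted p = 0.100).

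Ldha, which encodes the subunit of lactate dehydrogenase that favours lactate formation (chr7:46841475-46855627), stood at 1979, 1265, 1574 and 3116 CPM in Endo and 911, 769.5, 594 and 1217 CPM in HE. It fell by 1.15 ± 0.17 (adjusted p = 0.0460) and the sorts did not overlap. Ldhb, the gene of the other subunit, had a log2 ratio of 0.63 ± 0.58 (adjusted p = 0.613). Its 110.2 CPM in the Runx1b HE sort stood far above the 18.2 to 38.3 CPM of the other HE sorts. In that sort the 50% of cells with fewer than 10 pan-endothelial genes had 160.8 CPM and the other 50% 34.9 CPM. Pdk1, the kinase gene that keeps pyruvate out of the mitochondrion, did not overlap between Endo and HE (means 104.6 ± 25.2 and 35.2 ± 18.6 CPM, SD, n = 4) but missed the threshold at an edgeR adjusted p of 0.0738. The lactate exporter gene Slc16a3 (MCT4) was lower in all 4 sets at −1.47 ± 0.24 (adjusted p = 0.0562), and Slc16a1 (MCT1) in 3 of 4 (adjusted p = 0.189).

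Among the upper enzymes 1 enzyme passed. Gpi1, glucose-6-phosphate isomerase (chr7:34201330-34230336, minus strand), stood at 443, 302, 420.4 and 678 CPM in Endo and at 244.6, 175.7, 178.8 and 317 CPM in HE, and fell by 0.99 ± 0.14 (adjusted p = 0.0447). Each HE sort lay below its own Endo sort, while the ACE HE sort lay above the E11.5 Endo sort. The 3 phosphofructokinase genes, which encode the committing step, went apart. Pfkp, the platelet form, stood at 63.97, 65.95, 56.7 and 115.1 CPM in Endo and 6.01, 3.58, 49.4 and 4.83 CPM in HE. Its log2 ratio of −3.25 ± 0.86 did not pass (adjusted p = 0.132) although the sorts did not overlap. Pfkm, the muscle form, was higher in HE in all 4 sets at 1.66 ± 0.32 (adjusted p = 0.0738), and Pfkl, the liver form, lower in all 4 at −0.82 ± 0.17 (adjusted p = 0.0894). Pfkl was the main form in both per kilobase of exon. Its share of the 3 was 83.6% in E10.5 Endo and 65.4% in HE, and that of Pfkm 5.56% and 33.3%.

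The rest of the upper enzymes and the flux regulators did not pass. Tpi1, triosephosphate isomerase, was lower in HE in all 4 sets (log2 ratio −0.75 ± 0.15, adjusted p = 0.0839) and Aldoa, the main aldolase gene, in 3 of 4 (−0.44 ± 0.19, adjusted p = 0.289). The hexokinase genes Hk1 and Hk2, whose enzymes trap glucose in the cell, had adjusted p-values of 0.437 and 0.980. Pfkfb3 and Pfkfb4, whose enzymes make the activator of phosphofructokinase, had 0.847 and 0.501. Aldoc was listed with 0 reads in 3 of the 4 Endo sorts and at most 22.3 CPM in HE, and was the 1 member under the minimum mean of 5 CPM used for the single comparisons below. Reads of Gapdh, Tpi1, Pgk1, Pgam1, Ldha, Aldoa and Eno1 may have been shared with near-identical copies, of which Eno1b is measured under its own name, so their levels are uncertain to that extent. Exons of Slc2a1, Hk1, Pfkm, Pfkp, Aldoa, Tpi1, Gapdh, Hif1a, Ankrd37 and Ndrg1 overlap those of another gene on the opposite strand, and whether reads were counted by strand is not given in the sources used here. Exons of Pfkm also overlap those of a gene on the same strand, which counting by strand would not separate.

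**Figure D3:**
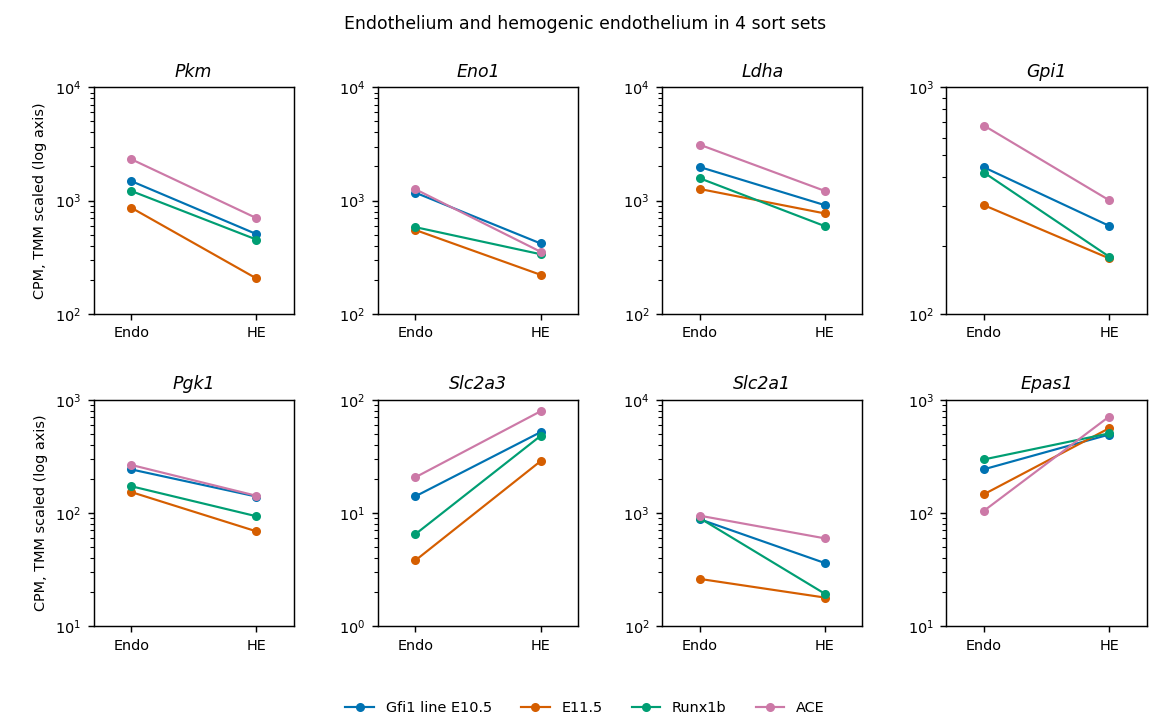
CPM (TMM scaled, log axis) of 8 genes in the Endo and the HE sort of each of the 4 sort sets; a line joins the sorts of 1 set. Pkm, Eno1, Ldha, Gpi1 and Pgk1 go down and Slc2a3 goes up in every set, and passed the test; Slc2a1 and Epas1 did not pass.

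Of the 11 hypoxia genes 0 passed edgeR's test in either direction, while 5 had an unadjusted p under 0.05. The HIF subunits did not move together. Epas1, the gene of HIF2A (chr17:86753700-86833410), stood at 242.9, 146.2, 296.8 and 104.4 CPM in Endo and 492, 559, 504 and 709 CPM in HE. All HE sorts lay above all Endo sorts at a log2 ratio of 1.61 ± 0.36, with an adjusted p of 0.0989. Restricted to cells with at least 10 pan-endothelial genes the ratio was 1.83 (adjusted p = 0.0304), and over all alternatives the adjusted p ran from 3.31e-05 with DESeq2 to 0.269. Hif1a, the gene of HIF1A, was lower in HE in all 4 sets at −0.56 ± 0.14 (adjusted p = 0.126), and Arnt stood at −0.05 ± 0.23 (adjusted p = 0.933). Per kilobase of exon, Epas1 made up 59.1% of the 2 alpha subunits in E10.5 Endo and 80.3% in HE, and 43.2% and 89.8% in the ACE sorts.

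Among the other HIF targets the direction was mostly down, without a call. Adm, which encodes the vasodilator peptide adrenomedullin, stood at 22.8, 9.51, 36.5 and 127.9 CPM in Endo and 1.28, 0, 10.496 and 1.02 CPM in HE (log2 ratio −5.33 ± 1.53, adjusted p = 0.146). Ankrd37, an ankyrin-repeat gene, and P4ha1, a collagen prolyl hydroxylase gene, did not overlap between the sorts and were lower in HE, at −1.67 ± 0.54 (adjusted p = 0.179) and −0.51 ± 0.17 (adjusted p = 0.195). Ndrg1 was lower in 3 of 4 sets. Bnip3, a mitophagy receptor gene, was higher in 2 sets and lower in 2. Ddit4, which encodes an inhibitor of mTORC1, was higher in all 4 at 0.89 ± 0.66 (adjusted p = 0.518). The hydroxylase genes Egln1 and Egln3 had adjusted p-values of 0.422 and 0.557.

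**Figure D4:**
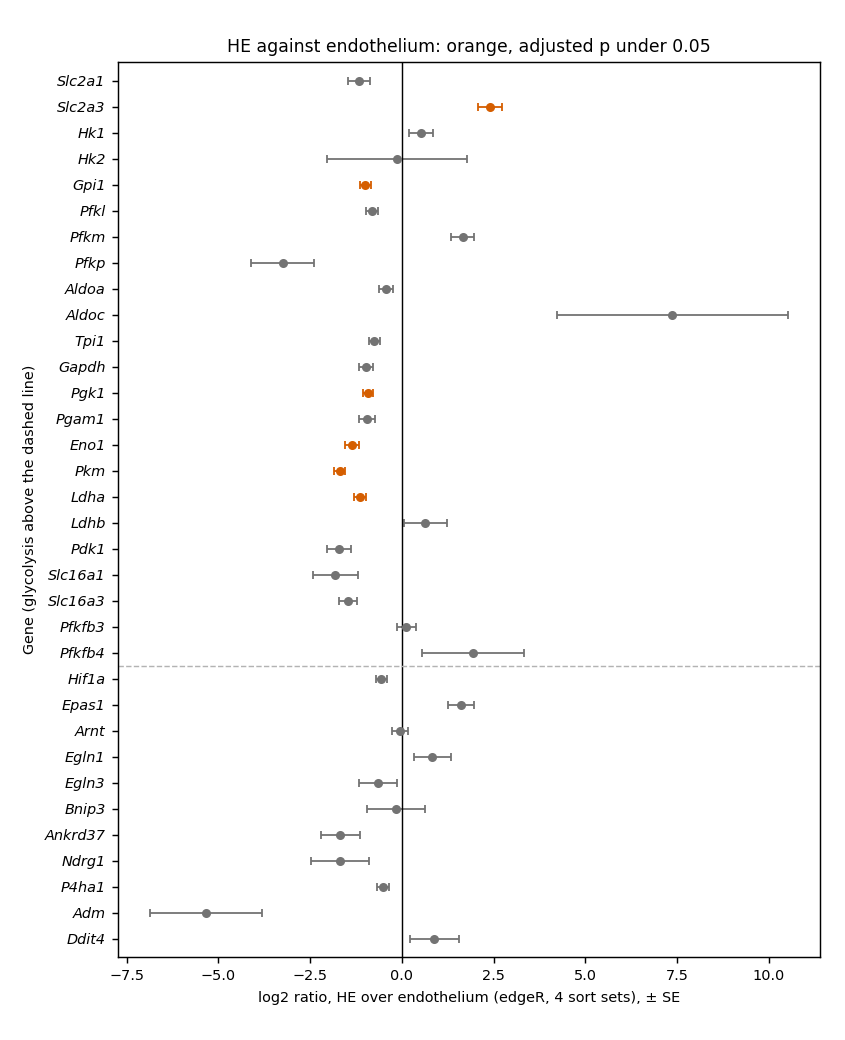
log2 ratio of HE over endothelium with its standard error for each of the 34 genes, from edgeR over 4 sort sets; orange points passed the adjusted threshold of 0.05. Orange points left of 0 are Gpi1, Pgk1, Eno1, Pkm and Ldha, and right of 0 Slc2a3; Aldoc, Adm and Hk2 have the widest errors.

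Of 44 other glycolysis and sugar genes and 40 other hypoxia genes, 32 and 37 were tested. In the first list 1 rose and 1 fell, and in the second 1 fell. Bpgm, the gene of the enzyme that makes bisphosphoglycerate from a glycolytic intermediate, stood at 34.3 ± 14.6 CPM in Endo and 234.9 ± 76.4 CPM in HE (SD, n = 4), and rose by 2.80 ± 0.26 (adjusted p = 0.0176). The enzyme is abundant in red cells. The ACE HE sort, with 0 erythroid-like cells, had 182.8 CPM against 30.7 in its Endo sort, and 10 erythroid genes summed to 13.5 CPM there. Other HE sorts held erythroid-like cells, and their part in the Bpgm difference was not tested. Pgm1, phosphoglucomutase, fell by 1.66 ± 0.17 (adjusted p = 0.0196), from a mean of 146.9 ± 42.7 to 46.3 ± 12.3 CPM (SD, n = 4). Mif, a cytokine gene counted among HIF targets, fell by 1.49 ± 0.22 (adjusted p = 0.0490). The median log2 ratio was 0.13 over the other glycolysis genes and 0.31 over the other hypoxia genes, against 0.09 over all genes.

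The direction of the 6 calls was the same in all 13 alternatives of the fit, but the calls were not. Without the set as a block 0 members were called lower, so all 5 lower calls ended. In that fit 1 member was called higher, a count that does not show whether it was Slc2a3. Leaving out the E10.5, Runx1b or ACE set ended all 6, and leaving out the E11.5 set ended all but Pkm and Ldha. The threshold was passed in 9 of 13 alternatives by Pkm, in 8 by Ldha, in 7 by Slc2a3, in 6 by Eno1 and Gpi1 and in 5 by Pgk1. Of the members not called in the main fit, Epas1 (higher in HE) and Slc16a3 (lower) passed it most often, in 4 alternatives each. No label names embryos, so these p-values measure the spread between 4 sets that differ in line, genotype or stage.

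Without replicates, 15 pairs of groups were compared by size alone, with no p-value. A gene counted as 2-fold apart when both its summed CPM and the mean of its per-cell CPM differed at least 2-fold in 1 direction. It entered with a mean of at least 5 CPM over the 19 groups, which 33 of the 34 members and 11029 genes in all had, and sums below 3 reads were set to 3 reads. Scaling by TMM in place of CPM shifted the log2 ratio of every gene by 1.09 and 1.10 in the pairs with E11.5 IAHC, by −0.26 for EHT against HE, −0.22 for HE by stage, 0.17 and 0.13 for HE against Endo at E10.5 in the Gfi1/Gfi1b and Runx1b lines, −0.13 for the Gfi1/Gfi1b knockout label and −0.11 between the ACE+ sorts. Elsewhere it shifted it by less than 0.1. Alone at E10.5 in the Gfi1/Gfi1b line, HE had 9 members lower and 2 higher than Endo, where 7.59% and 9.45% of all genes were so. Without erythroid-like cells 6 were lower and 2 higher.

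From HE to EHT, the step at which cells gain KIT and CD41, 8 members were at least 2-fold higher and 5 lower (9.02% and 11.8% of all genes). The higher ones were 6 of glycolysis and 2 of hypoxia. Gapdh had 293.7 CPM in HE, 937 in EHT and 1165 in IAHC, and Ldha had 824, 2004 and 2202 CPM. Hk2, the hexokinase gene of cells with high glucose use, stood at 23.01 CPM in Endo, 24.2 in HE, 99.4 in EHT and 93.6 in IAHC. Its share of both hexokinases per kilobase was 36.1% in HE and 69.7% in EHT. Without erythroid-like cells, which were 16 of the 95 in HE and 0 in EHT, 5 members were 2-fold higher in EHT and 4 lower. TMM scaling gave 5 higher and 6 lower. IAHC against EHT gave 2 members higher and 3 lower (4.15% and 10.8% of all genes).

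Epas1 and Adm, both prominent in blood vessels, were low in EHT and IAHC. Epas1 stood at 251.8 CPM in Endo, 445 in HE, 76.8 in EHT and 7.87 in IAHC, 5.80-fold lower in EHT than in HE and 9.76-fold lower again in IAHC. Hif1a lay between 114.9 and 183.7 CPM in these 4 groups and was the main alpha subunit in the last 2, with 61.6% of the pair per kilobase in EHT and 94.8% in IAHC. Adm stood at 23.6 CPM in Endo, 1.16 in HE and 0 in both EHT and IAHC, which allows up to 0.146 and 0.119 CPM at 3 reads. Slc2a1 stood at 912, 326, 279.4 and 145.2 CPM in the order Endo, HE, EHT and IAHC, so this transporter was lower still in EHT and IAHC. Slc2a3 stood at 14.5, 46.8, 110.2 and 79.5 CPM and took 20.9% of the pair per kilobase in IAHC. Along the same order the 20 pan-endothelial genes summed to 11696, 9025, 4239.7 and 1835 CPM.

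HE cells labelled Gfi1/Gfi1b knockout differed from heterozygous HE more than any other pair did in the number of members higher. Gfi1 and Gfi1b, the replaced repressor genes, gave no check of that label. Gfi1 had 218.9 CPM in the sort labelled knockout against 55.2 in the heterozygous one, and Gfi1b 91.6 against 52.1 CPM, and gene totals do not show which part of a gene the reads come from. In the cells labelled knockout 20 of 33 members were at least 2-fold higher and 0 lower, where 5.92% and 8.92% of all genes were so. Of glycolysis genes 14 of 22 and of hypoxia genes 6 of 11 were higher. The median log2 ratio was 1.46 over the members and 0.05 over all genes. Without erythroid-like cells 19 were higher and 1 lower. Under the alternatives between 19 and 21 members were higher and at most 1 lower, also among cells with at least 10 pan-endothelial genes.

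Genes of late glycolysis, lactate formation and glucose transport were among the higher ones. Pgk1 stood at 126.3 CPM in heterozygous HE and 544 in HE labelled knockout, a 4.31-fold difference, and Gapdh at 293.7 and 1266 CPM (4.31-fold). Pkm stood at 458 and 1256 CPM, Eno1 at 378 and 1125, and Ldha at 824 and 2298. The same genes stood in heterozygous Endo at 1541, 1216 and 2051 CPM, so the values of the sort labelled knockout were nearer to Endo than to heterozygous HE. Pgk1 and Gapdh went beyond the Endo values of 251.3 and 500.1 CPM. Slc2a1 stood at 768 CPM (2.35-fold over heterozygous HE) and Slc2a3 at 356 CPM (7.61-fold), the highest Slc2a3 level of the 19 groups. Reads of Slc2a3 were found in 42 of 95 heterozygous and 37 of 42 cells labelled knockout.

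Of the 6 HIF targets outside glycolysis 5 were at least 2-fold higher in this pair, as was Egln3. Bnip3 stood at 3.57 and 28.3 CPM, Ankrd37 at 6.42 and 39.2, Ndrg1 at 4.65 and 26.7, P4ha1 at 44.5 and 135.01, and Egln3 at 12.9 and 41.8. Adm stood at 1.16 CPM with reads in 1 of 95 heterozygous cells, and at 30.8 CPM in 10 of 42 cells labelled knockout. Ddit4 was the exception, at 5.40 and 7.06 CPM. The HIF genes themselves were not 2-fold apart, with Hif1a at 114.9 and 156.5 CPM, Arnt at 28.1 and 25.7, and Epas1 at 445 and 240.4 CPM. Of the other hypoxia genes 6 of 33 were at least 2-fold higher and 2 lower, and of the other glycolysis genes 2 and 5 of 30. Mif stood at 380.2 and 1461 CPM, and Ak4, a mitochondrial adenylate kinase gene, at 0.819 and 8.01. Pklr and Bpgm went the other way, from 80.1 to 12.4 and from 299.9 to 86.6 CPM. These sums hold the erythroid-like cells, 16 of 95 in heterozygous HE and 4 of 42 in the sort labelled knockout. The part of those cells in these 2 differences was not tested.

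Other measures differed between these sorts too. The median cell had 421344 reads in the sort labelled knockout and 711109 in heterozygous HE. The 8 blood progenitor genes summed to 779 and 349 CPM, the erythroid genes to 35477 and 145622, and the pan-endothelial genes to 8049.8 and 9025. The blood progenitor sums include the replaced genes themselves, Gfi1 with 218.9 and 55.2 CPM and Gfi1b with 91.6 and 52.1 CPM. Without erythroid-like cells the 16 enzymes summed to 10768 CPM in the sort labelled knockout and 4540.2 in heterozygous HE. With cells thinned to 100000 reads 21 members were higher. Each sort may come from few embryos, and genotype cannot be told apart from embryo, litter or plate.

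**Figure D5:**
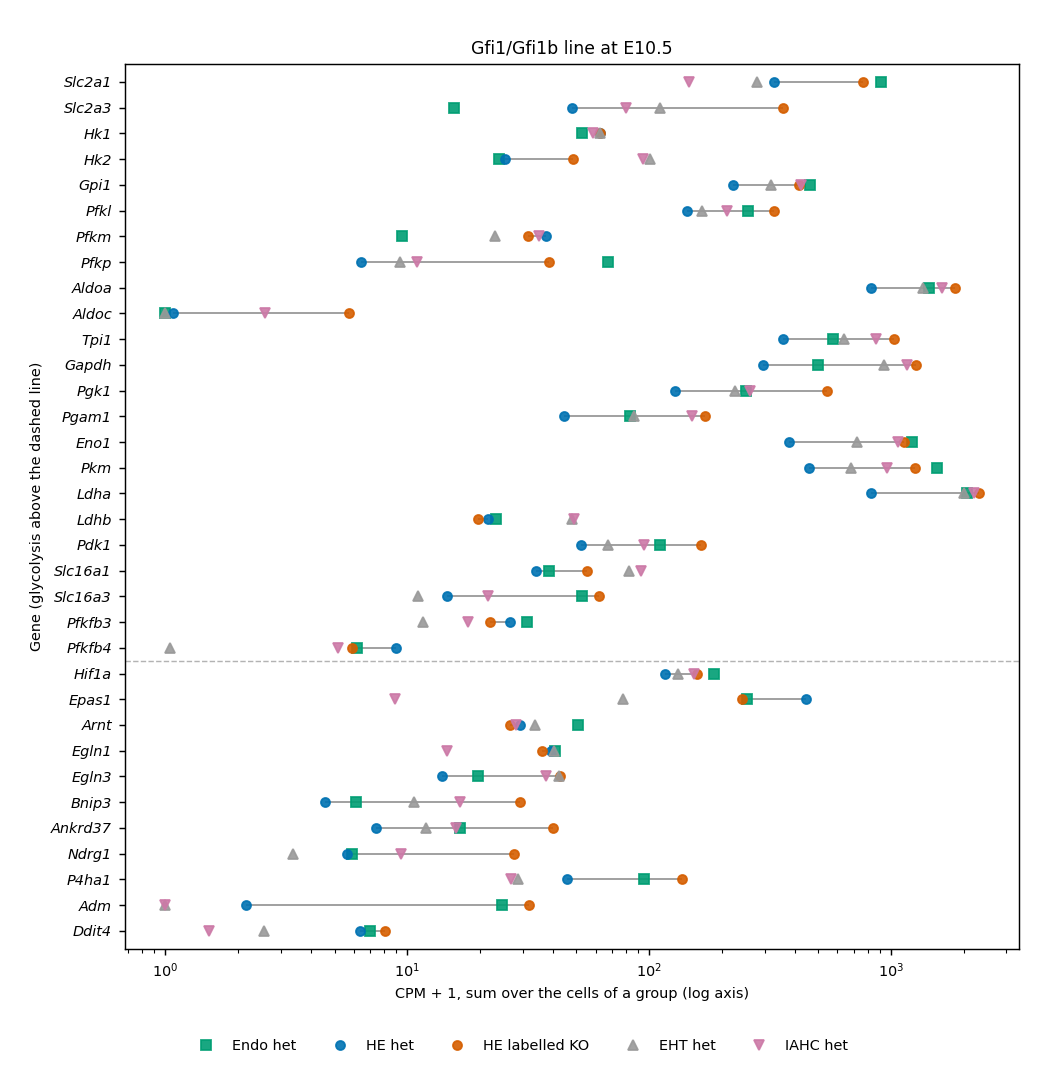
CPM + 1 (log axis) of the 34 genes in the 5 E10.5 groups of the Gfi1/Gfi1b line, from reads summed over cells; grey lines join heterozygous HE (blue) and HE labelled knockout (orange). Orange lies right of blue by at least 2-fold for 20 of the 33 genes with a mean of at least 5 CPM, and Epas1 is among those where it lies to the left.

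In the Runx1b line HE had 11 members at least 2-fold lower and 4 higher than Endo (5.85% and 14.3% of all genes), or 12 and 3 without erythroid-like cells. Pdk1 stood at 99.6 and 13.4 CPM in Endo and HE, and Slc2a1 at 926 and 179.01 CPM. This HE gate was mixed, as described above. The 50% of its cells with at least 10 pan-endothelial genes had 263.8 CPM of Slc2a1, 913 of Epas1 and 5.06 of Pfkp. The other 50% had 104.96, 77.8 and 81.4 CPM. The 16 enzymes together summed in both to 2911 and 3127 CPM.

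The HE cells of this line titled KO had 9 members higher and 4 lower than the heterozygous HE cells (5.08% and 6.49% of all genes), or 10 and 2 without erythroid-like cells. Runx1 stood at 1.47 CPM in the cells titled KO and 17.8 in the others. Slc2a1 stood at 756 against 179.01 CPM, Pdk1 at 50.2 against 13.4, Slc16a3 at 60.05 against 17.4 and Egln3 at 24.4 against 6.19. Ldhb and Hk2 were lower, at 27.3 against 102.1 and 5.03 against 10.8 CPM. The cell make-up differed, since 97.8% of the cells titled KO and 50% of the heterozygous ones had at least 10 pan-endothelial genes. Restricted to such cells, 0 members were lower in the cells titled KO and Hk2 was on the other side of 0. Among those cells Slc2a1 still stood at 763 against 263.8 CPM.

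Mesenchyme of Runx1b:RFP/WT embryos had 5 members higher and 9 lower than Endo of the same line (14.7% and 8.82% of all genes), or 4 and 6 without erythroid-like cells. Slc2a1 was 10.8-fold lower, at 85.6 against 926 CPM, Pdk1 4.97-fold lower, at 20.02 against 99.6, and Egln3 stood at 0.676 against 27.98 CPM. Ldhb was 16.2-fold higher, at 248.7 against 15.3 CPM, and gave 40.01% of both lactate dehydrogenase genes per kilobase against 1.96%. Between Runx1b:RFP/RFP and RFP/WT mesenchyme 3 members were higher and 2 lower (5.4% and 4.99% of all genes), or 3 and 4 without erythroid-like cells. The 16 enzymes summed to 4170.3 and 4601 CPM, and to 4205 and 5045 CPM without those cells. Epas1 was among the higher ones, at 167.1 against 49.7 CPM, while the pan-endothelial genes summed to 3169.8 against 747 CPM, and their part in that difference was not tested.

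In the ACE sorts the glycolysis level was lower in both ACE+ groups than in ACE-GFI1- endothelium, the highest of the 19 groups by sums. ACE+GFI1- cells had 14 members lower and 3 higher than ACE-GFI1- endothelium (11.2% and 16.8% of all genes), 11 of the lower ones from glycolysis. Pkm stood at 2353 CPM in ACE-GFI1-, 786 in ACE+GFI1- and 714 in ACE+GFI1+ cells, and Ldha at 3158, 951 and 1240.2 CPM. Eno1 stood at 1275, 473 and 360.0 CPM and Pfkp at 116.7, 10.6 and 4.93. Epas1 was 8.62-fold higher in ACE+GFI1- cells, at 105.8, 911 and 723 CPM in the same order, and Adm was 28.7-fold lower, at 129.7, 4.52 and 1.04. Slc2a1 was not 2-fold apart, at 958, 833 and 608 CPM. From ACE+GFI1- to ACE+GFI1+ 1 member was higher and 4 lower (4.18% and 4.03% of all genes), and the higher one was Slc2a3, at 23.1 and 80.6 CPM. The ACE-GFI1- sort holds 14 cells with a median of 1149730.0 reads, the larger ACE+GFI1- sort has 504028, and the part of depth in these values was not tested. At least 10 pan-endothelial genes were read in 92.9% of ACE-GFI1-, 78.4% of ACE+GFI1- and all ACE+GFI1+ cells.

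At E11.5 HE had 9 members lower and 7 higher than Endo (13.8% and 21.8% of all genes). Pkm stood at 892 and 215.4 CPM, Gapdh at 858 and 327, Epas1 at 150.9 and 587 and Egln1 at 9.63 and 57.2. Against E10.5, Endo had 10 members lower and 1 higher (16.2% and 6.85% of all genes), with Slc2a1 at 912 CPM at E10.5 and 269.4 at E11.5, and Eno1 at 1216 and 567. HE had 5 lower and 2 higher (11.9% and 10.8% of all genes), or 8 lower and 1 higher under TMM scaling and 7 lower and 1 higher without erythroid-like cells. The 16 Endo cells at E11.5 had a median of 2777260.0 reads, against 508629 at E10.5, and stage cannot be told apart from library depth or embryo.

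The E11.5 IAHC sort went against its gate and is given with and without its 14 erythroid-like cells. Its gate left out TER119+ cells, yet 14 of its 22 cells were erythroid-like. The gate also asked for CDH5, yet the median cell of the sort had reads of 2 of the 20 pan-endothelial genes. As sorted it had 14 members lower and 4 higher than E10.5 IAHC (48.4% and 7.29% of all genes), and 7 lower and 8 higher than E11.5 HE (45% and 6.95%). Without erythroid-like cells these counts were 12 lower and 5 higher, and 9 lower and 8 higher. The 12 include Adm, which then had 0 reads in both IAHC sorts and differed only by the 3-read floor. Under TMM scaling the counts were 3 lower and 6 higher, and 5 lower and 17 higher. The 16 enzymes summed to 3191 CPM with the erythroid-like cells and 4955 CPM in the other 8 cells, below the 9176 CPM at E10.5 either way. Bnip3 stood at 60.8 CPM in the erythroid-like cells and 6.02 in the others, and without the former it was lower, not higher, than in E11.5 HE and E10.5 IAHC. In the Runx1b HE gate it stood at 61.9 and 3.72 CPM, but in E10.5 HE at 5.06 and 3.09. Slc2a3 stood at 0.0172 CPM in the 14 erythroid-like cells of E11.5 IAHC and at 216.6 CPM in the other 8, while the 31 of the Runx1b HE gate had 169.5 CPM and the rest of that gate 22.2. Epas1 was low in erythroid-like cells of all 4 groups examined, at most 5.23 CPM, against 55.8 to 587 CPM in the other cells.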

How the data were processed

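Reads per gene were measured with Smart-seq2 in 1457 single cells and deposited by the authors as unnormalized counts in 2 tables of 1288 and 169 cells. Per the submitters' processing notes, bcl2fastq, STAR 2.4.2a, HTSeq 0.6.1p1, R 3.6.2 and the GRCm38 build were used. The annotation release and the strand setting were not given in the sources used here. The larger table ends in 1 incomplete row, which was dropped, and 13454 genes found only in the smaller table were left out, with 10.09% of its reads. The 36131 genes in both tables were kept. Spike-in rows held 0 reads. No cell was filtered out, although 30 had under 10000 reads. Groups come from titles, and 126 cells whose title and stage field disagree were kept apart.

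Counts of all cells of a group were added. HE and Endo sums of 4 sort sets (8 sums) were compared with the quasi-likelihood F-test of edgeR 4.0.16 in R 4.3.3 (filterByExpr, TMM, set as block, 3 residual degrees of freedom, Benjamini-Hochberg at 0.05 over 14553 genes). The standard error is the absolute log2 ratio over the square root of F. DESeq2 1.42.0 was an alternative. For the single comparisons, the restrictions to cells with at least 10000 reads or at least 10 pan-endothelial genes were chosen after seeing the data. Sort sets pair Endo and HE of 1 line and stage by label. The other 15 comparisons have 1 sample a group and no test; a gene counts when its mean is at least 5 CPM and both summed and mean per-cell CPM differ 2-fold. Thinning drew 100000 reads per cell. Per-kilobase levels use exon lengths of the GENCODE annotation of GRCm38, and promoters come from RefSeq (GRCm38.p6). The fit was also run on counts simulated with the same spread for every gene and no differences between sets. That run does not test the fit at the spread of the real sets. All 34 members could be named, and of other pathway genes those called or among the 6 largest differences of a comparison. The members and lists were chosen with earlier results of these data known.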

Additional observations from a re-analysis of the deposited data

Results flagged for a closer look

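Each of the 34 genes had 4 Endo and 4 HE values in the tested comparison, 68 groups of 4, and in 8 of them the highest or lowest sort stood far from the other 3 by Dixon's 95% criterion. Chance flags about 1 in 20 such groups. Of these, 4 were Endo of the ACE sorts, with 14 cells: Pfkp at 115.1 CPM (nearest other sort 65.96), Slc16a1 at 72.7 CPM (36.3), Slc16a3 at 196.8 CPM (49.8) and Aldoc at 4.81 CPM, where the other 3 sorts had 0. Slc2a1 was low in E11.5 Endo at 261.1 CPM, against 879.5 CPM in the nearest sort. In the HE of the Runx1b line Pfkp stood at 49.4 CPM (nearest 6.01) and Adm at 10.496 CPM (nearest 1.28). Within that gate Pfkp stood at 5.06 CPM in the 50% of cells with at least 10 pan-endothelial genes and 81.4 CPM in the other 50%. Adm stood at 1.65 and 16.8 CPM in the same order. Hk1 stood at 158.1 CPM in HE of the ACE sorts (nearest 67.8). Pfkp stood apart in both gates.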

How the results depend on the processing

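For HE against Endo edgeR called 1.4% of the genes tested, with 1 member higher and 5 lower. With no replicate block (the pairing of Endo and HE by sort set) it called 3.04%, with 1 and 0 members. Leaving out 1 set gave 0% to 0.895% of genes (without the ACE set 0 genes passed, and 1977 had an unadjusted p under 0.05), with 0 members higher and 0 to 2 lower. Thinned cells gave 6.7% of genes with 2 members higher and 13 lower, cells with at least 10 pan-endothelial genes 3.48% with 2 and 10, and DESeq2 17.8% with 4 and 18. With no filter on low counts 0.599% were called, with 2 members lower, and with the cells of conflicting stage added as a set 0 members were higher and 2 lower. Without misspelt titles 3 were lower. Over all members and settings of this comparison 371 outcomes, called or not called, were the same, while 33 calls were gained and 37 lost. The 371 include members called neither in the main fit nor in the alternative. Fewer sets leave fewer residual degrees of freedom, and otherwise the cause was not tested.

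Among pairs with no test, members 2-fold higher became 5 for EHT against HE without erythroid-like cells or with TMM, 4 (thinned) or 1 (without erythroid-like cells) for IAHC against EHT, 17 with TMM for IAHC against HE at E11.5, 2 (thinned) for Endo by stage, 1 for HE by stage (without erythroid-like cells, with TMM, or with at least 10 pan-endothelial genes), 5 by sums alone for Mes and 2 (thinned) between the ACE+ sorts. Members 2-fold lower became 9 by per-cell means or 8 with TMM for HE by stage, 3 with TMM or 8 with at least 10 pan-endothelial genes for IAHC by stage, 2 without erythroid-like cells or 0 with at least 10 pan-endothelial genes for Runx1b HE titled KO, 4 for Mes (per-cell means, thinned, or without erythroid-like cells), and 1 for the Gfi1/Gfi1b knockout label (without erythroid-like cells, TMM, or at least 10 pan-endothelial genes). Without erythroid-like cells the log2 ratio changed sign in E11.5 IAHC against HE for Slc16a1 (−0.28) and Bnip3 (−1.15). It also did so in IAHC by stage for Bnip3 (−1.37), and in Runx1b HE titled KO for Bnip3 (0.29). Adm was listed with a changed sign in E11.5 IAHC against HE (−0.0011) and in IAHC by stage (−1.77). It had 0 reads on both sides of each pair, so these values compare only the 3-read floors and show no difference. With at least 10 pan-endothelial genes the log2 ratio changed sign for Bnip3 (−0.0603) in IAHC by stage, and for Bnip3 (1.09) and Hk2 (1.18) in Runx1b HE titled KO. Of the other values of members 2-fold apart, 1362 stayed 2-fold apart and 90 did not. The 1362 include settings with a looser rule, under which no member could be lost. These were sums alone, per-cell means alone and a minimum mean of 1 CPM. Depth limits the lowest genes: 9 of 646 levels had 0 reads.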
